A study of Homo sapiens with 30 samples.

Results

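The regions described here were open in both telencephalon-medium cultures of day 4 and in no midbrain-medium or hindbrain-medium culture, whichever neural ectoderm the cells came from. Open means that an ATAC-seq peak list had at least 1 peak in the region. They were chosen by the readout itself: peaks of all 10 deposited lists on chromosomes 1 to 22 were merged where they overlapped by 1 bp or more, and a region was kept if it was open in aNE_T and pNE_T and in none of aNE_M, aNE_H, pNE_M and pNE_H. This gave 3036 regions of 476170, called shared telencephalon-medium regions below, or members. Since the 6 day 4 lists fixed the members, everything about those lists is a description. The earlier lists entered the merging but not the open or closed criteria, and neither the position along chromosomes 1 to 22 nor the sequence entered the choice.

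All cells were wild-type H1, an established human embryonic stem cell line, and the assay was OmniATAC-seq, in which a transposase cuts accessible DNA, with 50000 cells per library. There were 10 groups of 3 libraries and 1 peak list per group. hPSC were undifferentiated cells at day 0, and DE, definitive ectoderm, was their product at day 1 in CDM2 medium with A8301 (a TGF-beta receptor inhibitor), trametinib (a MEK inhibitor), C59 (which blocks WNT secretion) and LDN193189 (a BMP receptor inhibitor). At day 2, aNE, anterior neural ectoderm, had received A8301, LDN193189, C59 and thiazovivin. The parallel pNE, posterior neural ectoderm, had received A8301, LDN193189, thiazovivin, FGF2, XAV939 (a WNT pathway inhibitor) and TTNPB, a retinoic acid receptor agonist, at 50 nM. Each was then moved to telencephalon, midbrain or hindbrain medium until day 4, which gave aNE_T, aNE_M, aNE_H, pNE_T, pNE_M and pNE_H. On day 3 the forebrain medium held XAV939 at 1 µM, LDN193189 at 100 nM and FGF2 at 20 ng/mL. Its day 4 composition and the other 2 media are not used here. Every day 4 culture had thus passed through DE, and every pNE-derived culture through TTNPB. Plating for the day 2 libraries, aNE and pNE, was 37500 cells per square cm. For cultures kept beyond day 2 it was 75000 before aNE medium and 150000 before pNE medium. Plating density and origin therefore cannot be told apart at day 4. Nor can plating density and time be told apart between the day 2 and day 4 lists. All groups came from 1 cell line.

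The telencephalon is the most anterior part of the neural tube and gives rise to the cerebral cortex and basal ganglia. Its fate is favoured by low WNT signalling, whereas WNT and retinoic acid shift neural tissue towards midbrain, hindbrain and spinal cord. Regulatory DNA in use, both promoters next to transcription start sites and enhancers that can lie far away, is usually accessible to transposase, and distal elements differ more between cell types than promoters do.

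Sequences are shown for the 4 members whose aNE_T and pNE_T peaks both covered the RefSeq start site of a protein-coding gene, because there the peak can be tied to a named promoter. Each line gives the 250 bases before the start site, 5′ to 3′ on the strand of the gene, from the RefSeq promoter table of GRCh38.p14. Capitals mark the bases that lay in both telencephalon-medium peaks. ALDH4A1, a mitochondrial enzyme of proline breakdown, is on the minus strand, and its window is chr1:18890892-18891141. CUX1, a homeobox transcription factor, is on the plus strand at chr7:101817376-101817625. PTPRE, a receptor-type tyrosine phosphatase, is on the plus strand at chr10:127997897-127998146. CHRM5, the M5 muscarinic acetylcholine receptor, is on the plus strand at chr15:33968247-33968496.
ALDH4A1: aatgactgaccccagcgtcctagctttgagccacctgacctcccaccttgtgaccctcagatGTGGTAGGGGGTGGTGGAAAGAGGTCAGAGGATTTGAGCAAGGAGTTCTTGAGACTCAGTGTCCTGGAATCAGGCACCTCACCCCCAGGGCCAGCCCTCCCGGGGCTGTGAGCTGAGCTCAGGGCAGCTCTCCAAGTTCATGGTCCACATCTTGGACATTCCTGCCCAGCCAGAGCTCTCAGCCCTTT
CUX1: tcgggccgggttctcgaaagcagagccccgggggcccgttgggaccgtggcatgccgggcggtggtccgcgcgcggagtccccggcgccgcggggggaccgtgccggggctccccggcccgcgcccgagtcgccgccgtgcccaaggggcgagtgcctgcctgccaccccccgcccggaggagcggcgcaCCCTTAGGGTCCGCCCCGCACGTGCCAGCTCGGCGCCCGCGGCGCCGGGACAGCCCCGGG
PTPRE: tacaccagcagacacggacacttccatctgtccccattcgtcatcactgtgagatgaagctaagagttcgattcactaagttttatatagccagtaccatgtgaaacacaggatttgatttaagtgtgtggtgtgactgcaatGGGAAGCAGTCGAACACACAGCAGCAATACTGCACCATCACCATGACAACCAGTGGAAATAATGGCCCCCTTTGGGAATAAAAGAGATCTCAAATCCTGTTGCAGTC
CHRM5: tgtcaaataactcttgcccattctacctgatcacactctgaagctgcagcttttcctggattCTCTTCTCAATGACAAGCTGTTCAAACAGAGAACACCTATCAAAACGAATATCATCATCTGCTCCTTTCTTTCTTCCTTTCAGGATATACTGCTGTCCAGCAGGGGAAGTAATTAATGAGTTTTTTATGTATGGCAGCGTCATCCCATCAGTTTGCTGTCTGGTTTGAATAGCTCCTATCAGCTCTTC

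The CHRM5 start site was at the outer end of the annotated gene. The start sites of ALDH4A1, CUX1 and PTPRE were internal, at 11.7, 1.62 and 91 kb from the upstream end of the gene. At ALDH4A1 the aNE_T peak was 333 bp and the pNE_T peak 283 bp wide, 188 of the printed bases lay in both, and the region was open in all 4 earlier lists. At CUX1 the peaks were 238 and 529 bp wide with 60 printed bases in both, and the region was open in hPSC, DE and aNE and closed in pNE. At PTPRE (278 and 250 bp, 107 bases) and at CHRM5 (290 and 227 bp, 188 bases) the regions were closed in all 4 earlier lists. The printed stretch of CUX1 was 82% G and C, with 40 CpG dinucleotides and an observed to expected CpG ratio of 0.952. That of ALDH4A1 was 58.4% G and C with 2 CpG, that of PTPRE 44.8% with 4, and that of CHRM5 41.6% with 2. CUX1 was the 1 promoter of the 4 with a CpG ratio above 0.6, as CpG islands have.

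The 4 belong to 25 RefSeq start sites, of 24 genes, that lay in a member. Of these genes 12 were protein-coding. A start site in a member need not lie in a telencephalon-medium peak, since peaks of the earlier lists also widen a member. That of NECTIN4, for example, was 58 bp from the aNE_T peak and 87 bp from the pNE_T peak. The values below are for all 25, so they do not describe only promoters covered by telencephalon-medium peaks. Over the 300 bases around each start site (250 before and 50 after), the members' start sites had a median G and C content of 49.7% and a median CpG ratio of 0.228. Start sites in regions open in all 6 day 4 lists, of which there were 19368, had 65.7% and 0.815. A CpG ratio of at least 0.6 was found at 8% of the members' start sites, at 78.3% of those in regions open in all 6 lists, and at 49% of all 33725 on chromosomes 1 to 22. Among 12 short words searched on both strands, TAATTA, the core of many homeobox sites, was in 3 of the 25 promoters (12%; 4.91% of all promoters) and GGATTA, the core bound by OTX factors, in 3 (12%; 6.37%). The E-box word CAGCTG was in 9 (36%; 18% of all promoters) and the nuclear receptor word AGGTCA in 7 (28%; 13.8%). GGGCGG, an SP and KLF word, was in 6 (24%; 45%). TATAAA was in 5 (20%; 11.6%), GGAATG, a TEAD word, in 6 (24%; 14%), CCAAT in 8 (32%; 34.4%) and ACAATG, a SOX word, in 1 (4%; 10.8%). The AP-1 word TGANTCA was in 0 (7.67% of all promoters), and so was the ETS word CCGGAAG (10.3%). The cyclic AMP response word TGACGTCA was in 0 as well (1.87%). With 25 promoters these are descriptions, and a word is not shown to be a binding site. Among the 4 printed, TAATTA occurs in CHRM5, GGGCGG in CUX1, TATAAA in PTPRE, and AGGTCA and GGAATG in ALDH4A1. TATAAA and GGAATG are there on the strand not printed, so they read TTTATA and CATTCC. The TTTATA of PTPRE lies outside the capitals.

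The members were a small share of the DNA open in telencephalon medium. Both telencephalon-medium lists were open at 129438 regions, and 2.35% of these were members. At the other end, 96805 regions were open in all 6 day 4 lists. Just outside the rule, 5847 regions were open in both telencephalon-medium lists and in exactly 1 of the 4 others: 2565 with pNE_H, 2516 with aNE_M, 497 with pNE_M and 269 with aNE_H. The 2 lists that most often kept a region out were the longest list, pNE_H with 302355 peaks, and aNE_M with 211358. The telencephalon-medium lists held 191380 (aNE_T) and 207744 (pNE_T) peaks, of which 1.6% and 1.47% lay in members. The telencephalon-medium lists also had regions open in one of them and in no other day 4 list, 14790 in aNE_T and 19752 in pNE_T, so most telencephalon-medium regions closed in the 4 other lists were found in 1 origin only.

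**Figure D1:**
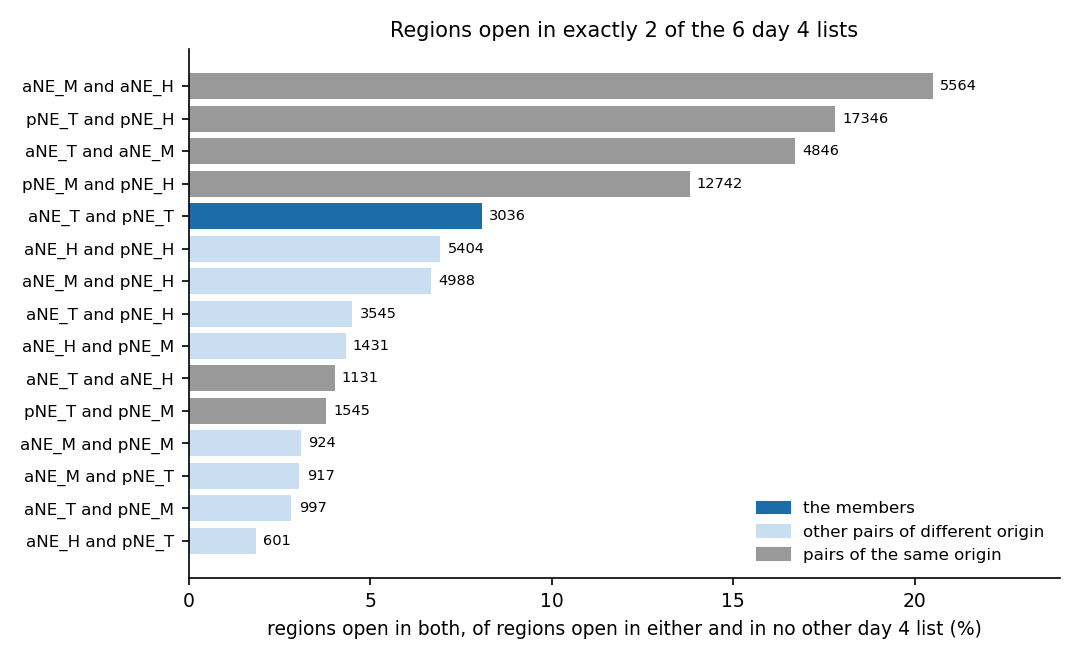
Regions open in exactly 2 of the 6 day 4 lists, for the 15 pairs of lists; the bar is the percentage of the regions open in either list and in none of the other 4, and the number beside it counts the regions. The members (dark blue) have the longest bar of the 9 pairs of different origin, at 8.08%, below 4 pairs of the same origin.

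Among the 9 pairs that join an aNE-derived and a pNE-derived list, the telencephalon pair shared the largest percentage of its exclusive regions, 8.08%, where a region counts if it was open in either list and in none of the other 4. The hindbrain pair shared 6.93% (5404 regions) and the midbrain pair 3.1% (924 regions). pNE_T shared 3.05% with aNE_M (917 regions) and 1.85% with aNE_H (601 regions). aNE_T shared 2.83% with pNE_M (997 regions) and 4.51% with pNE_H (3545 regions). By number the order differed, since 5404 hindbrain regions, 4988 shared by aNE_M and pNE_H, and 3545 shared by aNE_T and pNE_H exceeded the 3036 members. The percentage depends on list length too, and pNE_H was the longest list. Its base was 37578 regions for the telencephalon pair and 77952 for the hindbrain pair. Among regions open in aNE_T and no other aNE-derived list, 28.9% were open in pNE_T and 33% in pNE_H. For aNE_H and no other aNE-derived list, 44.3% were open in pNE_H. In the other direction, pNE_T regions defined likewise were open in aNE_T at 24.8% and pNE_H regions in aNE_H at 19.7%. These values come from the lists that chose the members and have no test.

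The telencephalon-medium peaks in the members were narrow. The aNE_T peak had a median width of 189 bp (quartiles 147 to 264, range 122 to 1235), against 305 bp for aNE_T peaks outside the members and 449 bp in regions open in all 6 day 4 lists. The pNE_T peak had a median of 193 bp (quartiles 143 to 282, range 115 to 1206), against 289 and 409 bp. Peaks in regions open in a single day 4 list were narrower still, with medians of 171 bp in aNE_T and 172 bp in pNE_T. Peaks at the smallest width of their list, 122 bp in aNE_T and 115 bp in pNE_T, made up 8.47% of the members' aNE_T peaks (257 members) and 8.1% of the pNE_T peaks (246), against 3.71% and 4.06% of all peaks. In all 480 members had such a peak, and 223 had both peaks wider than the median of the list. The 2 peaks of a member mostly lay on the same DNA: they overlapped in 2982 members (98.2%) and by at least 50% of the shorter peak in 2807 (92.5%), with a median distance of 39.5 bp between midpoints. In 54 members the 2 peaks were joined only through a peak of an earlier list, so these are open in an earlier list by construction. Among members whose 2 peaks overlap by at least 50% of the shorter one, DE was open at 55.6%, aNE at 39.8% and pNE at 21.9%, close to the shares of all members given next. Whole members had a median width of 324 bp (quartiles 233 to 461).

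The earlier lists differed in how often they were open at the members, and the order was DE, aNE, hPSC, pNE. Closed in all 4 earlier lists were 999 of the 3036 members (32.9%, Wilson 95% interval 31.3 to 34.6), against 35% of all merged regions. DE was open at 1701 members, 56% (54.3 to 57.8), against 46.9% of all regions. aNE was open at 1193, 39.3% (37.6 to 41), against 32%. hPSC was open at 1129, 37.2% (35.5 to 38.9), against 40.5%. pNE was open at 660, 21.7% (20.3 to 23.2), against 39.2%. DE and aNE thus lay above the share of all regions, and pNE below it. The comparison set matters, since all regions include those open in no day 4 list and those open in all 6. The 65017 regions open in exactly 2 day 4 lists, members included, were open less often in each earlier list. Their shares were 24.6% in DE, 13.2% in aNE, 18.8% in hPSC and 19.6% in pNE, and 59% were closed in all 4. The intervals cover the sampling of regions only, since each group has 1 list and no value per library. DE and aNE changed places in 1 alternative: among lists cut to the 162041 widest peaks each, 45.8% of the members were open in DE and 52.5% in aNE.

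**Figure D2:**
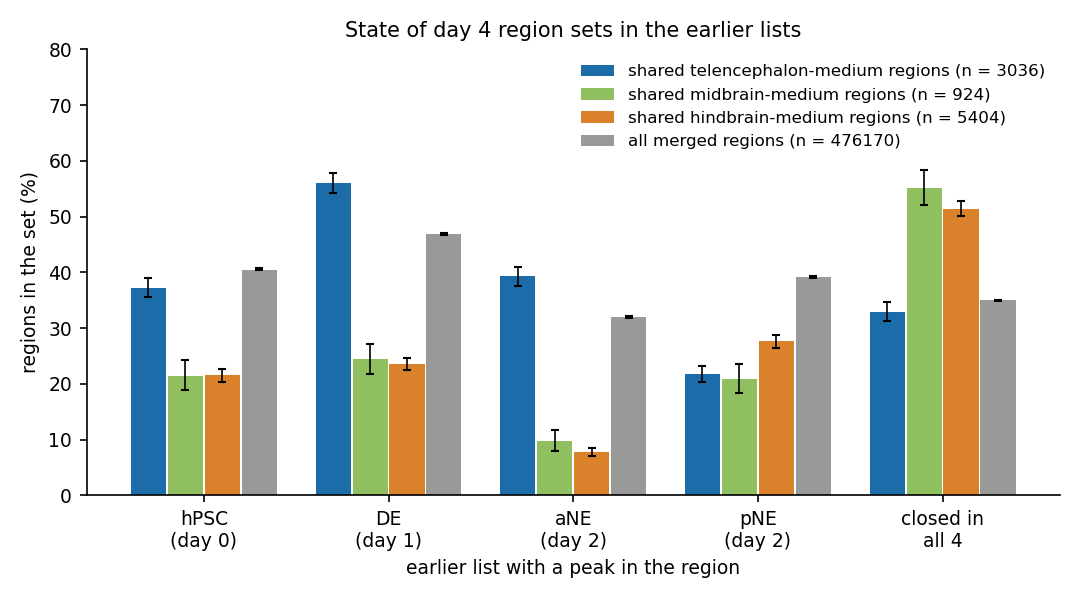
Percentage of regions open in each earlier list, or closed in all 4, for the members, the shared midbrain-medium and hindbrain-medium regions and all merged regions; bars start at 0 and error bars are Wilson 95% intervals over regions. The members stand at 39.3% in aNE and 21.7% in pNE, whereas the midbrain-medium and hindbrain-medium sets are higher in pNE than in aNE.

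The members were open more often in aNE than in pNE, although each had to be open in a pNE-derived list. The difference was 17.6 percentage points, while over all regions aNE was lower by 7.18 points, aNE being the shortest list. The same rule applied to the midbrain-medium lists gave 924 regions, open in aNE at 9.74% and in pNE at 20.8%. Applied to the hindbrain-medium lists it gave 5404 regions, at 7.81% and 27.6%. The telencephalon-medium set was therefore the one of the 3 with aNE above pNE. In DE the midbrain and hindbrain sets were open at 24.4% and 23.6%, and in hPSC at 21.4% and 21.5%. They were closed in all 4 earlier lists at 55.2% and 51.4%, compared with 32.9% of the members. Regions closed in the 4 midbrain and hindbrain lists, whatever their state in telencephalon medium, had 13.1% in aNE and 8.75% in pNE, so closure in those lists already went with a smaller difference of the same sign. No difference between lists was tested, as there was no replicate value.

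The members had their earlier lists in the same order as the regions that were open in aNE_T and no other day 4 list. Those 14790 regions were open at 49% in DE, 31.4% in aNE, 29.7% in hPSC and 11.9% in pNE. The 19752 regions open in pNE_T alone were open at 11% in DE, 8.74% in hPSC, 3.79% in aNE and 3.52% in pNE, and 83% of them were closed in all 4 earlier lists. Members were open in pNE at 21.7%, above both of these sets. Taking pNE_H out of the rule, an alternative chosen after seeing the data, admits regions open in the longest list. It raised the number of members to 5601 and their pNE share to 29.5%, with aNE at 39.6%.

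**Figure D3:**
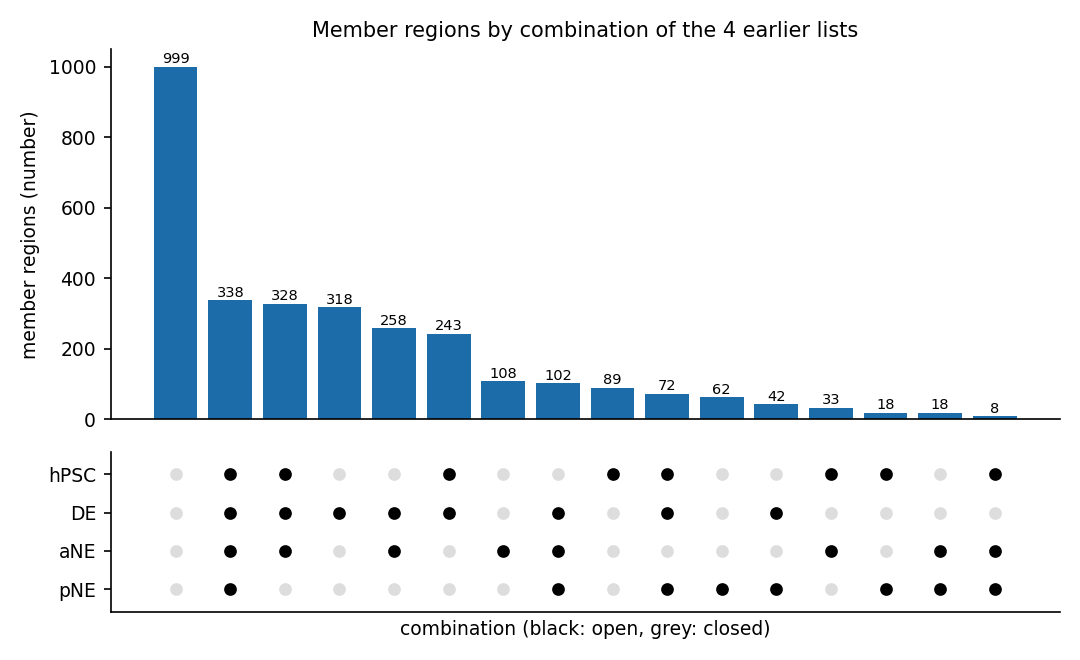
Number of members with each of the 16 combinations of open (black) and closed (grey) in hPSC, DE, aNE and pNE. The tallest bar, 999 members, is closed in all 4 lists, and the combination open in hPSC, DE and aNE but not pNE holds 328.

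The members fell into many combinations of open and closed in the 4 earlier lists. As aNE and pNE were parallel cultures, a combination is not the history of 1 culture. After the 999 members closed in all 4 lists came 338 (11.1%) open in all 4, against 21.7% of all regions. Then came 328 (10.8%) open in hPSC, DE and aNE and closed in pNE, a combination found at 2.16% of all regions. Those open in DE only numbered 318 (10.5%; 8.62% of all). Those open in DE and aNE only numbered 258 (8.5%; 1.78% of all), those in hPSC and DE only 243 (8%; 5.11%), and those in aNE only 108 (3.56%; 1.28%). By contrast, 62 were open in pNE only (2.04%; 6.84% of all). At day 2 as a whole, aNE without pNE was the state of 727 members (23.9%; 5.55% of all), pNE without aNE that of 194 (6.39%; 12.7%), and 466 (15.3%; 26.4%) were open in both. aNE without pNE was also the state of 23.2% of the regions open in aNE_T alone, of 6.17% of the shared midbrain-medium regions and of 4.03% of the shared hindbrain-medium regions. The remaining 1649 members (54.3%; 55.3%) were closed in both day 2 lists, and 650 of these (21.4% of members; 20.3% of all) had been open in hPSC or DE. Between day 0 and day 1, 720 members (23.7%; 15.2%) were open in DE and not in hPSC, and 148 (4.87%; 8.81%) the reverse.

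Peak width moved with the earlier state. The members were ranked by the width of the narrower telencephalon-medium peak and cut into 4 groups of 759. In these the aNE share was 29.9% at 115 to 127 bp, 32.9% at 127 to 154 bp, 41.8% at 154 to 198 bp and 52.6% at 198 to 1206 bp. The DE share went from 50.9% to 62.8% over the same groups, and the share closed in all 4 from 37.4% to 26.2%. The hPSC share moved least, from 36.6% to 38.7%. The pNE share was 19.2%, 17.7%, 22.9% and 27.1%, below the aNE share in each group. Of the 2 day 4 peaks, the aNE_T peak varied more with the earlier state: its median was 170 bp in members closed in all 4 lists, 211 bp in those open in aNE and not pNE, and 257 bp in those open in all 4. The pNE_T medians of those classes were 195, 195 and 198 bp. The part of peak calling in these shares was not tested.

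**Figure D4:**
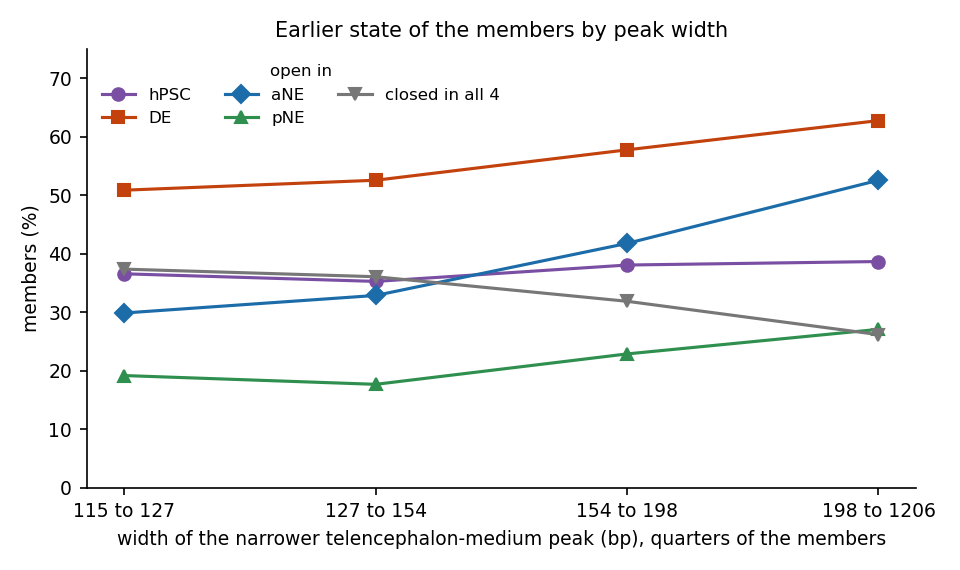
Percentage of members open in each earlier list, or closed in all 4 (y axis), in 4 groups of members ranked by the width in bp of the narrower of the aNE_T and pNE_T peaks (x axis), with 759 members in each. The aNE line rises from 29.9% to 52.6% and stays above the pNE line, which ends at 27.1%.

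Most members were distal. Within 1 kb of a gene end lay 254 members, 8.37%, against 11.2% of all merged regions and 20.1% of the regions open in both telencephalon-medium lists. The midbrain-medium and hindbrain-medium sets had 7.9% and 7.72%. The median distance to the nearest gene end was 12680 bp, against 13129 bp over all regions, and 456 members (15%; 16.7% of all) lay more than 50 kb from one. Inside a protein-coding gene were 1576 members (51.9%; 51% of all), and 1072 (35.3%; 35.2%) were outside any gene. Members closed in all 4 earlier lists were within 1 kb of a gene end at 6.41%, those open in aNE and not pNE at 9.63%. They were spread over the genome, with 114 (3.75%) within 10000 bp of another member and a median of 250 kb between neighbours. Chromosome 4 had the smallest share of members, 122 of its 29049 merged regions, and chromosome 20 the largest, 118 of 12330. A peak of one of the 4 midbrain-medium and hindbrain-medium lists lay within 1 kb of 980 members (32.3%), at a median distance of 1932 bp over all members.

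The widest members more than 1 kb from a gene end are described here, and some of them lay inside genes. Their peaks were far wider than the medians over all members, 189 bp (aNE_T) and 193 bp (pNE_T). The widest by the smaller of its 2 peaks was at chr11:72561793-72563086, intergenic, 7.57 kb from LINC01537 and 13.1 kb from PDE2A, a cyclic nucleotide phosphodiesterase gene. Its peaks were 1235 bp (aNE_T) and 1206 bp (pNE_T), and it was open in hPSC, DE and aNE. The next, chr12:101145803-101146998, was 8.49 kb from SLC5A8, a monocarboxylate transporter gene, with peaks of 1076 and 934 bp, open in DE and aNE. Both had been open in aNE and not in pNE. chr8:139997105-139998045, inside TRAPPC9, had peaks of 825 and 898 bp and the same earlier state as the SLC5A8 region. chr6:3074817-3076069, inside RIPK1, a kinase gene of cell death signalling, had peaks of 778 and 1041 bp and was open in all 4 earlier lists. So was chr3:105156910-105157965, 209 kb from ALCAM, a cell adhesion gene, with peaks of 964 and 695 bp. chr4:158970399-158971407, inside SPMIP2, had peaks of 681 and 1009 bp, was closed in all 4, and had a peak of an excluded list 260 bp away.

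Of the 4 widest members within 1 kb of a gene end, 1 was at a protein-coding gene end. It was chr1:100720251-100720661, inside VCAM1 and 0.509 kb from its end, with peaks of 396 and 396 bp. VCAM1 encodes a cell adhesion protein, and this region was open before day 4 in pNE alone. The other 3 were at chr1:29222543-29223365 (inside MECR, beside a long non-coding RNA, peaks of 463 and 757 bp, open in hPSC, DE and pNE), chr3:114102968-114103560 (at the pseudogene H2BP3, 443 and 496 bp, open in all 4) and chr8:136519310-136520016 (in a long non-coding RNA, 491 and 422 bp, open in DE and aNE).

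The genes that mark the telencephalon had open chromatin in all day 4 cultures, and members near them about as often as other genes. All 28 telencephalon and forebrain factors found on chromosomes 1 to 22 had a peak in the gene or within 1 kb of it in each of the 6 day 4 lists. That holds for 87.1% of all 19126 protein-coding genes and for 90% or more of the genes in each of the other 11 lists, so it does not set these genes apart. In the 50 kb windows around these genes there were 743 regions, of which 303 were open in both telencephalon-medium lists and 5 were members. Counting each gene window separately, members were 5 of 769 regions here and 4137 of 619308 over all protein-coding genes. Within those windows aNE_T was open at 54.2% of the regions (38.1% of all merged regions), aNE_M at 54.8% (41.8%) and aNE_H at 49.5% (38.9%). pNE_T was open at 52.1% (41.3%), pNE_M at 50.5% (41%) and pNE_H at 63.8% (61%). SIX3, a homeobox factor of the anterior forebrain, had 19 regions open in both telencephalon-medium lists and 0 members. PAX6 with 14 such regions, OTX2 with 10 and LHX2 with 12 also had 0 members. The lists give presence of a peak, not its height, so a gain of signal within a region open in all cultures cannot be seen here.

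Members lay within 50 kb of 5 of the 28 genes (17.9%), against 18.2% of all protein-coding genes (3488 of 19126). LHX5, a LIM homeobox factor of the forebrain, had a member at chr12:113501798-113502090, 29.9 kb from the gene, with peaks of 227 (aNE_T) and 255 bp (pNE_T), open in hPSC, DE and aNE. The other genes with members were EMX2, GSX2, RAX and LHX9. EMX2, a homeobox factor of the dorsal telencephalon, had one at chr10:117513229-117513411 inside the antisense gene EMX2OS, 29.3 kb from EMX2, with peaks of 122 and 183 bp. GSX2, a homeobox factor of the ventral telencephalon, had one at chr4:54095568-54095804, 4.36 kb away and 3.69 kb from CHIC2, with peaks of 150 and 237 bp. RAX, a factor of the eye field and hypothalamus, had one at chr18:59295938-59296118, 22.5 kb away and 0.536 kb from the end of CPLX4, inside that gene, with peaks of 171 and 156 bp. The members at EMX2, GSX2 and RAX were closed in all 4 earlier lists. LHX9 had a member 21.2 kb away, with peaks of 143 and 115 bp, open in all 4. None of the 5 members reached the median aNE_T peak width of 302 bp.

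**Figure D5:**
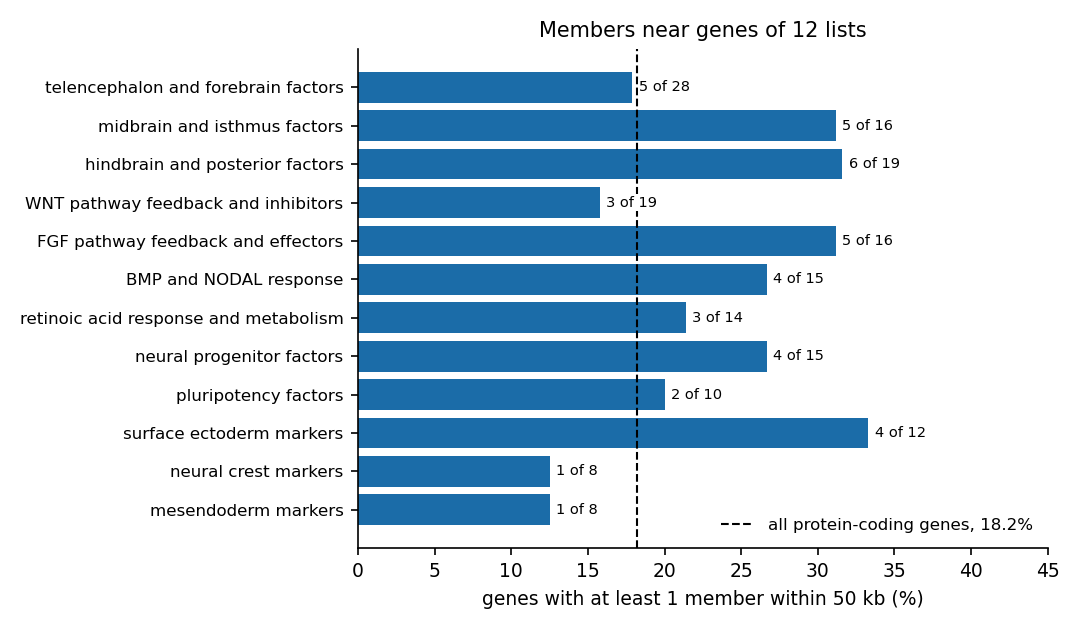
Percentage of the genes in each of 12 lists with at least 1 member inside the gene or within 50 kb of it; numbers give the genes with a member of the genes found. The dashed line is the same over all protein-coding genes, 18.2%, and the telencephalon list, at 17.9%, lies next to it.

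Genes of the other brain regions had members as well. Of the 16 midbrain and isthmus factors 5 had 1 or more (31.2%), with 9 members among 667 regions. GATA2, a zinc finger factor of midbrain GABAergic neurons and of blood, had 4, at 10.7, 12.6, 15.7 and 29.4 kb from the gene. Their earlier states were DE only, hPSC only, hPSC with DE and pNE, and closed in all 4. LMX1B, a LIM homeobox factor of the isthmus and of dopaminergic progenitors, had 2. One, at chr9:126613250-126613527, was 0.401 kb from the gene with peaks of 258 and 175 bp, open in hPSC and aNE. LMX1A had 1 inside the gene (267 and 115 bp, closed in all 4), BARHL1 had 1 at 29.1 kb (230 and 264 bp, open in DE) and FOXA2, a floor plate factor, had 1 at 26.2 kb (300 and 132 bp, open in all 4).

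Of the 19 hindbrain and posterior factors 6 had a member (31.6%), but these were 3 distinct members. HOXB1, HOXB2, HOXB3 and HOXB4, homeobox genes that pattern the hindbrain, shared 1 at chr17:48542238-48542546, 0.109 kb from HOXB2, with peaks of 145 and 306 bp, open in hPSC and DE. EGR2, a zinc finger factor of rhombomeres, had 1 inside the gene (198 and 115 bp, open in hPSC and aNE). MEIS2, a HOX cofactor, had 1 inside the gene (145 and 221 bp, closed in all 4). The larger hindbrain-medium set had regions in the windows of 24.1% of all protein-coding genes, and of 8 of the 19 hindbrain genes (6 distinct regions), 8 of the 16 midbrain genes and 3 of the 28 telencephalon genes. The smaller midbrain-medium set had them at 5.55% of all protein-coding genes, and at 4 (2 distinct regions), 0 and 2 of these genes.

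Signalling genes related to the media had members at shares between 15.8% and 31.2%. Of the 16 FGF feedback and effector genes 5 had one. FGFR2, a receptor, had 3, of which 2 were inside the gene. SPRY4, a feedback inhibitor, had 1 inside the gene with peaks of 225 and 757 bp, open in DE, and IL17RD, another feedback inhibitor, had 1 inside the gene, open in hPSC and DE. ETV5, an ETS factor downstream of FGF, had 1 at 19 kb, open in hPSC and DE, and SPRED3, an inhibitor of the RAS pathway, 1 at 33.8 kb, closed in all 4.

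Of the 19 WNT feedback genes and inhibitors 3 had a member (15.8%): RNF43, a ligase that removes WNT receptors, LGR5, a receptor for R-spondins, and SFRP1, a secreted inhibitor. The RNF43 and SFRP1 members were closed in all 4 earlier lists and the LGR5 member was open in DE and pNE. Of the 15 BMP and NODAL response genes 4 had one (26.7%): BMP7, a ligand, with 2, SMAD6, an inhibitory SMAD, with 1 inside the gene and closed in all 4, and the homeobox targets MSX1 and MSX2 with 1 each. One BMP7 member, 13.6 kb from the gene, had peaks of 538 and 288 bp and was open in DE and aNE. Of the 14 retinoic acid genes 3 had one (21.4%). RARB, a retinoic acid receptor, had 2 inside the gene, with peaks of 377 and 217 bp (open in aNE) and of 340 and 214 bp (open in all 4). The receptor RARA had 1 inside the gene, open in aNE, and STRA6, a receptor for retinol-binding protein, 1 at 11 kb, open in DE and aNE. All 4 retinoic acid members had been open in aNE, and 1 of them in pNE, where the shares of all members were 39.3% and 21.7%. These 4 were singled out after their values were seen.

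Of the 15 neural progenitor factors 4 had a member (26.7%). ZIC2 and ZIC5, neighbouring zinc finger genes, shared 1 at 3.01 kb from ZIC2, open in hPSC, DE and aNE. SOX11 had 1 at 3.81 kb, closed in all 4, and HES5, a Notch target, 1 at 36.1 kb, open in hPSC and DE. Of the 10 pluripotency factors 2 had one (20%): POU5F1 at 13.2 kb, open in all 4, and PRDM14 at 3.61 kb, with peaks of 425 and 321 bp, open in hPSC, DE and aNE.

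Members were also found near markers of other cell types that the cultures could hold. Of the 12 surface ectoderm markers 4 had a member (33.3%, against 18.2% of all protein-coding genes): GATA3, GRHL3, GRHL2 and KRT8. Those at GATA3 and GRHL3 were open in all 4 earlier lists, that at GRHL2 in hPSC, DE and aNE, and that at KRT8, 49.2 kb away, in none. Of the 8 neural crest markers SOX10 had one (12.5%), and of the 8 mesendoderm markers TBX6 had one (12.5%). With lists of 8 to 28 genes, 1 or 2 genes move a share by several points. A share of genes also depends on how many regions their windows hold. Counting each gene window separately, members were 4 of 517 regions at surface ectoderm markers and 4137 of 619308 over all protein-coding genes. At hindbrain factors they were 6 of 847, and at neural progenitor factors 4 of 525. These shares of regions lay close to that of all genes. Midbrain (9 of 684), FGF (7 of 623) and BMP and NODAL genes (5 of 491) stayed higher. WNT genes (3 of 855) were lower. No list was tested.

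Each region was also assigned to the protein-coding gene with the nearest end. KAZN, a gene of cell junctions, had 7 of the 286 regions assigned to it, all inside the gene, and 5 of the 7 were open in DE. Then came 6 genes with 6 members each. ISX had 6 of 115 regions, TBC1D22A 6 of 119, WWOX 6 of 175, KLHL29 6 of 270, CDH8, a cadherin gene, 6 of 380, and AUTS2, a neurodevelopmental gene, 6 of 573. The 6 assigned to ISX lay outside it, spread over 471 kb, and 3 of them were closed in all 4 earlier lists, as were 4 of those at WWOX. MKI67, the proliferation marker gene, had 5 of 152 regions, all outside the gene. They lay in chr10:128287439-128742291, and the gene spans chr10:128096659-128126423. Whether they act on MKI67 was not tested. CDKAL1 had 5 of 190 regions, AJAP1 5 of 205, MYT1L, a neuronal zinc finger factor, 5 of 278, and CTNNA2, a neuronal catenin, 5 of 289. The genes were ranked by number of members, not by share. Over all merged regions, 3036 of 476170 were members. Over these 12 genes the number of members open in pNE ran from 0 (CDKAL1 and MYT1L, with 2 and 1 open in aNE) to 3 (CDH8, with 4 in aNE). At MKI67 2 were open in pNE and 1 in aNE, and at KAZN, ISX, WWOX and AUTS2 the 2 numbers were equal. With 5 to 7 members a gene, these counts do not separate a gene from the 21.7% open in pNE over all members.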

How the data were processed

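OmniATAC-seq of H1 cells was analysed from 10 deposited peak lists, 1 per group of 3 libraries. The deposited values are peak start and end positions on hg38, the build named by the submitters' processing notes. Those notes also name FastQC, Bowtie2, MACS2, bedtools, featureCounts and deepTools among others, with no role or version. The peak threshold, the filters and how replicates were combined are not given in the sources used here. The lists hold no score and no value per library, so depth is unknown and no test was made.

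Peaks on chromosomes 1 to 22 were merged at an overlap of 1 bp or more with Python 3.11.15, numpy 2.4.6 and pandas 2.3.3, in code tested on simulated data. Shares have Wilson 95% intervals (scipy 1.17.1), which cover the sampling of regions only. Gene positions (56756 genes) and promoters came from RefSeq tables of GRCh38.p14. Exon positions were not used here, and a gene end is either end of a gene. No genome sequence was used, so distal members have no printed sequence.

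The members, gene lists and tests were chosen with earlier results of these data known. Named genes were every listed gene with a member within 50 kb, the 12 protein-coding genes with the most members by nearest end, and the members with the largest smaller peak (6 beyond and 4 within 1 kb of a gene end, 4 at telencephalon genes). Listed genes outside chromosomes 1 to 22 were left out, and some results are not reported here. Alternatives were 50% coverage of a region, the wider 50% of each list, lists of one size, 500 bp windows, overlapping telencephalon-medium peaks, no other day 4 peak within 1 kb, regions beyond 1 kb of gene ends, and, chosen after seeing the data, the rule without pNE_H.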

Additional observations from a re-analysis of the deposited data

Results flagged for a closer look

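The comparisons used chromosomes 1 to 22. On chromosome X, 92 of 16790 merged regions were open in both telencephalon-medium lists and in none of the 4 other day 4 lists. They are flagged because they lie in data outside the main measurement. Of these regions 53.3% were open in DE, 48.9% in aNE, 33.7% in hPSC and 32.6% in pNE, and 28.3% were closed in all 4. DE was highest here too, whereas hPSC and pNE were nearly equal.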

How the results depend on the processing

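aNE was open at more members than pNE under 8 of 8 alternatives, by 10.1 points without the pNE_H list (the alternative chosen after seeing the data) to 25 points in lists of one size. Of 55 values recomputed, 39 stayed within the interval or factor set for them. The number of members was 1482 with the wider 50% of each list and 5601 without pNE_H. Where peaks had to cover 50% of a region, 28.6% of members were open in hPSC, 45.5% in DE, 35.8% in aNE and 20% in pNE, and 38.1% in none. In lists cut to 162041 peaks these were 45.8% in DE, 52.5% in aNE, 27.5% in pNE and 30.2% in none, with 43.9%, 43.6% and 43.8% of all regions open in DE, aNE and pNE. Without pNE_H, 29.5% were open in pNE and 29.9% in none. With the wider 50% of peaks, hPSC was open at 34.1%, and 9.45% lay within 1 kb of a gene end. With no other day 4 peak within 1 kb, 7.2% did. The cause was not tested. No paired analysis was possible because each group has 1 list with no replicate number, and no replicate could be left out. A region counted as closed may hold signal below the unknown peak threshold, and the depth that sets this limit is unknown.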
